A study of Mus musculus with 6 samples.

Results

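This account describes the RNA levels of the Mediator complex, the cohesin complex with its loading and release factors, and the insulator protein CTCF in mouse embryonic stem cells depleted of the long noncoding RNA Panct1. Members were found by symbol: every gene named Med followed by a number, with or without a closing l, and Cdk8, Ccnc, Smc1a, Smc3, Rad21, Stag1, Stag2, Nipbl, Wapl, Pds5a, Pds5b and Ctcf. This gave 42 genes of the 18193 measured, 32 of Mediator and 10 of cohesin and CTCF. Only genes with at least 1 probe set that names no other gene could be among them. The study compared 3 arrays of cells given an esiRNA against Panct1 with 3 arrays of cells given an esiRNA against Luciferase, a gene absent from mouse cells that served as negative control. An esiRNA is a mixture of short double-stranded RNAs made by enzymatic digestion of a longer one. All 6 samples were cells of the Oct4-Gip line, embryonic stem cells that carry a reporter and a drug resistance gene under Oct4 control, in medium with serum and LIF, transfected at 60000 cells with 800 ng of esiRNA, and their total RNA was taken 72 hours later and hybridised to Affymetrix Mouse430 version 2 arrays. Each sample is the RNA of a whole transfected culture of 1 cell line, and the labels do not tell whether each replicate was its own culture. The p-values thus speak of the scatter among these 6 RNA samples, part or all of which could be technical.

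Mediator is a large complex that carries signals from transcription factors bound at enhancers to RNA polymerase II at promoters. Its head and middle modules contact the polymerase, its tail binds activators, its backbone subunit holds these together, and a detachable kinase module controls whether the polymerase can bind. Cohesin is a ring that holds sister chromatids together and folds interphase chromatin into loops, which CTCF halts at its binding sites. In embryonic stem cells Mediator and cohesin occupy the enhancers and promoters of active genes, among them genes of pluripotency, and lowered levels of either are known to disturb that state.

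Promoters are shown for the 3 members with the largest called differences in each direction, chosen for that after their values were seen, since they moved in opposite directions. Of the 42 members, 35 had a promoter among the RefSeq sequences of build GRCm38.p6, with 39 promoters in all. The stretches below are the 250 bases before the annotated start, read 5′ to 3′ on the strand of the gene. They lie at chr3:59006728-59006977 (plus strand) for Med12l, chrX:12761974-12762223 (minus strand) for Med14, chr9:100643198-100643447 (plus strand) for Stag1, chr8:72548311-72548560 (minus strand) for Med26, chr12:81595009-81595258 (minus strand) for Med6 and chr8:105636288-105636537 (plus strand) for Ctcf. Capitals mark matches on either strand. The GC box was searched as GGGCGG. The letters CCGGAAG stood for an ETS-type site, and the CCAAT box for itself. For the TATA box the search used TATAAA, and it had no match in the 6 genes. No 2 matches overlap in these stretches.
Med12l: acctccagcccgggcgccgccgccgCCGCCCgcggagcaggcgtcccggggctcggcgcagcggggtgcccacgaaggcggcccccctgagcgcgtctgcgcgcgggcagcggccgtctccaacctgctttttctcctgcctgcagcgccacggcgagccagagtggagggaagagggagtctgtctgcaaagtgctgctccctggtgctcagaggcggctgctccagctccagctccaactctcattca
Med14: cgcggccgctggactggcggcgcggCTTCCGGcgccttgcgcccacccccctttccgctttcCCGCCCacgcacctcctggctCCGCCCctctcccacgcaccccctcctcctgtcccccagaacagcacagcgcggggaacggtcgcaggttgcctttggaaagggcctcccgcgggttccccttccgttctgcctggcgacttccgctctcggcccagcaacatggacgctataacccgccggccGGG
Stag1: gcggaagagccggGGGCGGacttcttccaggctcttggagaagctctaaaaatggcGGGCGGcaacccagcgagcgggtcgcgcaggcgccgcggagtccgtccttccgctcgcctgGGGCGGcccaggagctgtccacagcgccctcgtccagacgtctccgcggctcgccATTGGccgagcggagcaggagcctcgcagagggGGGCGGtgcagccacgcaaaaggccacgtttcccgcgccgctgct
Med26: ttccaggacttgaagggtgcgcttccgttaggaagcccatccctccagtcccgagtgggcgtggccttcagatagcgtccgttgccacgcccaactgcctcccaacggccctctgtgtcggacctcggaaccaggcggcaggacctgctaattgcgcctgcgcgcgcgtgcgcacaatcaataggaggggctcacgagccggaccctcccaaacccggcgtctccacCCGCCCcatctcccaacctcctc
Med6: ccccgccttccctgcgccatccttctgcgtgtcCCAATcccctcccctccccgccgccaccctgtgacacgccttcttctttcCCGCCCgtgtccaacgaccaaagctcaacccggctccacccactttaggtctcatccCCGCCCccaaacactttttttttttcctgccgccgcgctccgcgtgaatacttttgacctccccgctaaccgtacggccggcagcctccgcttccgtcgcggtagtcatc
Ctcf: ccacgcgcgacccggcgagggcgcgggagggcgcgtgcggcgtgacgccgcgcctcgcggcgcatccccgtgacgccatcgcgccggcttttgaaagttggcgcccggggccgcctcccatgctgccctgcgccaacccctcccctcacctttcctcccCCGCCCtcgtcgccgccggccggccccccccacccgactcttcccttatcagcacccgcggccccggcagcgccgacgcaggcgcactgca
Each of the 6 carried at least 1 GC box, with 4 in the promoter of Stag1, and the closing capitals of Med14 are the part of a match that runs over the start. The ETS-type letters stood in Med14 and, 15 bases after the start and so outside the printed stretch, in Med6. Over the window of 250 bases before to 50 after the start, GGGCGG was found in 69.2% of member promoters against 35.7% of all 32851 promoters, CCGGAAG in 23.1% against 8.86%, CCAAT in 41% against 37.4% and TATAAA in 7.69% against 13.6%. Member promoters had a median GC content of 60%, against 52.7% over all promoters. Matches describe the letters of a window only.

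Values are log2 signals made by RMA, a method that corrects background, equalises the distributions of the arrays and summarises the probes of a set. The median of each array lay between 6.07 and 6.09, arrays correlated at 0.997 to 0.998 within groups and at 0.991 to 0.993 between groups, and the depletion of Panct1 itself was not assessed here, since no probe set used here is named for it. All 10 embryonic stem cell markers lay above the lower quartile of signal in both groups, 6 of them lower and 0 higher in knockdown. Signals of a list were summed on the unlogged scale, so the brightest markers weigh most. The log2 of this sum was 16.275 to 16.31 on knockdown arrays and 16.42 to 16.46 on control arrays. Of 9 trophectoderm markers 8 were higher, and their sum was 13.26 to 13.44 on knockdown arrays against 11.47 to 11.59 on control arrays, with Elf5 below the lower quartile in both. Of 8 fibroblast markers 2 were higher, with 1 in knockdown and 2 in control below the lower quartile. The log2 of the fibroblast sum was 8.95 to 9.03 on knockdown and 8.88 to 8.93 on control arrays. Among 7 primitive endoderm markers 4 changed, 3 of them lower, and among 6 neural markers 4 changed, 2 each way. Marker calls are by limma at an adjusted p under 0.05, which 24.2% of all genes passed (12.9% higher and 11.3% lower). The share called was 60% for stem cell, 88.9% for trophectoderm, 25% for fibroblast, 57.1% for primitive endoderm and 66.7% for neural markers. Fewer cells of a type and less RNA per cell cannot be told apart in these samples, and the part of such shifts in the results on Mediator and cohesin was not tested.

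Like most genes, most members differed little between Panct1-depleted and control cells. A few subunits in different modules moved in opposite directions, and the share called was near that over all genes. By limma at an adjusted p under 0.05 over all genes, 9 of 42 members changed, or 21.4%, against 24.2% of all genes. Med12l, Med14, Stag1 and Med21 were higher, and Med26, Med6, Ctcf, Med15 and Med18 were lower; over all genes 12.9% were higher and 11.3% lower. Med12l alone differed by 1.5-fold or more, a size that 6.74% of all genes reached with an adjusted p under 0.05. The difference was under 0.5 on the log2 scale for 41 of the 42, against 91.1% of all genes, and under 0.2 for 28, against 68.2%. The median difference was 0.01 over Mediator, -0.08 over cohesin and CTCF and -0.02 over all genes. For 17 members no knockdown array fell within the range of the control arrays or the reverse, against 38.3% of all genes. The members were read on bright probe sets, 40 of the 42 above the upper quartile of all probe sets and 0 below the lower one. Of all 18193 genes, 6998 lay above the upper quartile and 2564 below the lower one. The members not above the upper quartile were Med12 and Med12l. Med12l was the dimmest member, with a mean signal of 6.84. With genes below the lower quartile left out of the fit, 11 of 42 members changed (26.2%), against 28.8% of the genes kept.

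**Figure D1:**
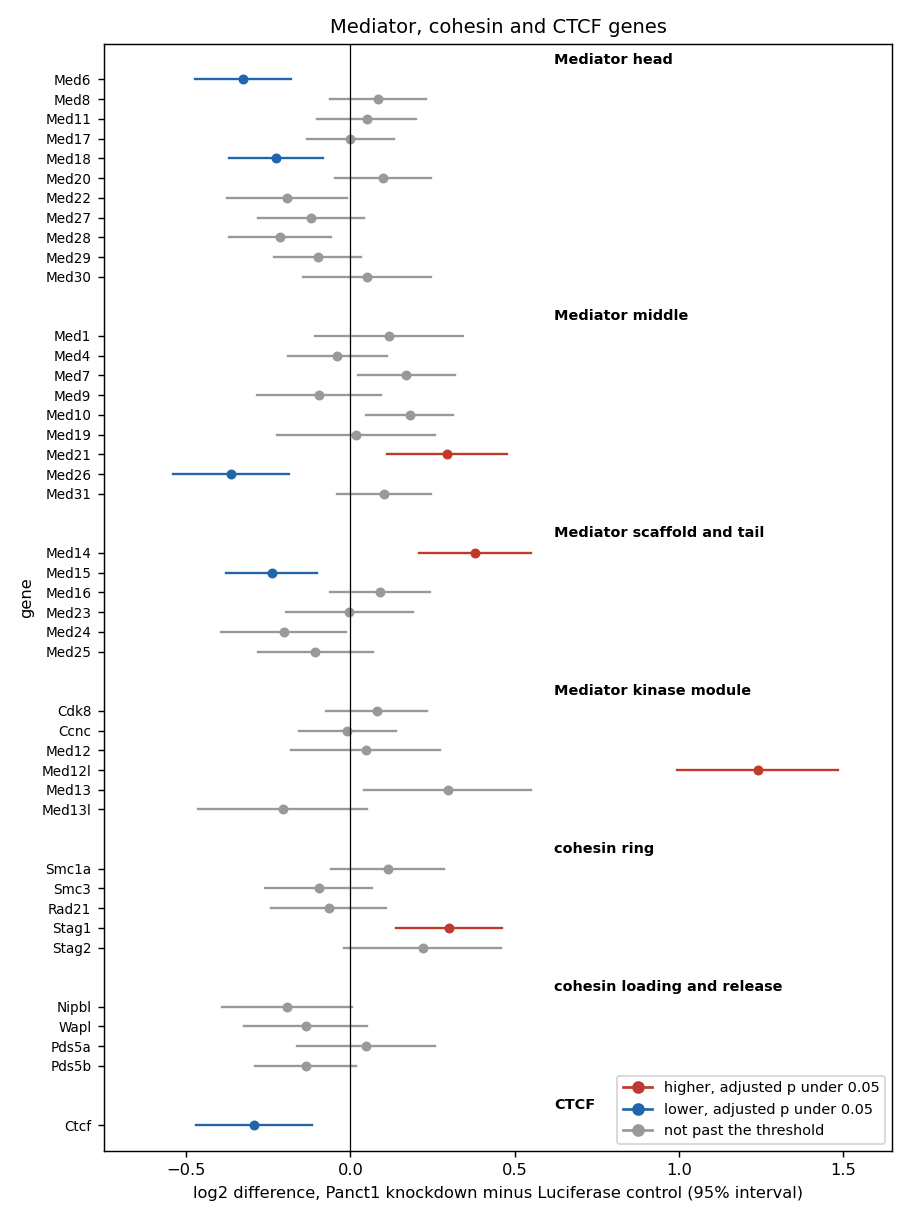
Log2 difference of signal, Panct1 knockdown minus Luciferase control, for the 42 members by role, each point a gene with its 95% interval from limma (3 arrays per group). Med12l stands at 1.24, and the other 41 lie between -0.36 and 0.38.

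In the head module, which binds the polymerase, 2 of 11 subunits were lower and 0 higher (18.2% called, against 24.2% of all genes). Med6, a conserved head subunit, had signals of 9.19, 9.19 and 9.30 on knockdown arrays, against 9.50, 9.58 and 9.58 on control arrays. All knockdown arrays lay below all control arrays, and the difference was -0.33 (SE 0.06, limma adjusted p = 0.00616). Of 3 probe sets of Med6, 2 were lower, by limma adjusted over all probe sets, and the 3rd, a dim one, differed by -0.10. Med18, part of the movable jaw of the head, had 10.10, 10.12 and 10.12 in knockdown and 10.33, 10.41 and 10.28 in control, without overlap (difference -0.23, SE 0.06, limma adjusted p = 0.0288). Only the removal of Luciferase control replicate 3 kept the call for Med18 among the 6 arrays removed in turn (limma adjusted p from 0.0622 to 0.0857 for the other 5), and it was lost with the adjustment over all probe sets (0.0529).

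The other 9 head subunits did not pass, with differences from -0.21 to 0.10. Med28 was closest, at 11.32 ± 0.07 in knockdown and 11.53 ± 0.07 in control (SD, n = 3 each), with a difference of -0.21 and a limma adjusted p = 0.0519. A dimmer probe set of Med28 was lower, with 6.58, 6.68 and 6.45 in knockdown against 7.02, 6.98 and 7.01 in control (difference -0.43, limma adjusted p = 0.00581 over probe sets). Med28 passed in 5 of the 15 alternatives to the main setting, with adjusted p from 0.00249 to 0.19 over all 15. Med29 and Med22 also had every knockdown array below every control array without passing, at -0.10 and -0.19. With the mean of its 3 probe sets Med29 was lower, at -0.23 (limma adjusted p = 0.0244). Med20, the partner of Med18 in the jaw, had every knockdown array above every control array, at a difference of 0.10 that did not pass (adjusted p = 0.319). Med17, around which the head is built, averaged 10.51 ± 0.02 in knockdown and 10.51 ± 0.03 in control, with a 95% interval of the difference from -0.13 to 0.13. The remaining 4, Med8, Med11, Med27 and Med30, differed by 0.08, 0.05, -0.12 and 0.05 with overlapping arrays.

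In the middle module 1 of 9 subunits was higher and 1 lower (22.2% called, against 24.2% of all genes). Med21, a small subunit at the hinge between the middle parts, read 10.60, 10.48 and 10.62 on knockdown arrays, against 10.15, 10.40 and 10.27 on control arrays. The groups did not overlap, and the difference was 0.29 (SE 0.08, limma adjusted p = 0.0282). It no longer passed when knockdown replicate 1 or 3, or control replicate 1 or 3, was removed (limma adjusted p from 0.0709 to 0.105). Med26, the subunit through which Mediator recruits elongation factors, read 8.54, 8.65 and 8.69 in knockdown and 9.01, 8.87 and 9.09 in control. It was lower on every knockdown array, by a difference of -0.36 (SE 0.08, limma adjusted p = 0.00908), and a second, dimmer probe set differed by -0.11 without passing. The calls for Med26 and Med6 held in all 15 alternatives tried, a 1.5-fold minimum aside.

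Med1, the subunit that nuclear receptors bind, had 10.51, 10.56 and 10.50 on knockdown arrays and 10.46, 10.18 and 10.58 on control arrays. These overlapped, and the difference of 0.12 did not pass (95% interval -0.11 to 0.34, limma adjusted p = 0.46). Its 7 probe sets disagreed: the 2 brightest differed by 0.12 and 0.18, while 2 dimmer ones were lower, by -0.52 (limma adjusted p = 0.00453) and -0.39 (adjusted p = 0.0195). The first of these 2 read 6.63, 6.38 and 6.55 in knockdown and 6.94, 7.12 and 7.06 in control. With the mean of all 7 the difference was -0.13 (limma adjusted p = 0.164). The transcript forms of Med1 that each probe set reads were not analysed here.

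The other 6 middle subunits did not pass. Med10 differed by 0.18 (11.34 ± 0.03 in knockdown and 11.16 ± 0.03 in control, SD, n = 3 each, limma adjusted p = 0.0553) and Med7 by 0.17 (adjusted p = 0.0954), both with every knockdown array above every control array. Med10 passed in 5 and Med7 in 1 of the 15 alternatives, with adjusted p from 0.0163 to 0.172 and from 0.0494 to 0.27. Med31 differed by 0.10, also without overlap, and Med4, Med9 and Med19 by -0.04, -0.10 and 0.02 with overlapping arrays.

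Of the backbone and tail subunits, 1 of 6 was higher and 1 lower (33.3% called, against 24.2% of all genes). Med14, the X-linked backbone that joins head, middle and tail, read 10.04, 10.10 and 9.93 on knockdown arrays, against 9.54, 9.68 and 9.71 on control arrays. Every knockdown array was above every control array, with a difference of 0.38 (SE 0.07, limma adjusted p = 0.00608). The rise was seen on the brightest of 5 probe sets. The other 4, at much lower signal, differed by -0.10 to 0.15 without passing, and with the mean of all 5 the difference was 0.14 (limma adjusted p = 0.211). Med15, a tail subunit that binds activators such as SREBP, read 9.04, 8.96 and 9.0 in knockdown and 9.22, 9.21 and 9.29 in control. It did not overlap and was lower, at -0.24 (SE 0.06, limma adjusted p = 0.0208). Med15 no longer passed when knockdown replicate 2 or 3, or control replicate 1 or 3, was removed (limma adjusted p from 0.0505 to 0.0883), or with the mean of its 4 probe sets (difference -0.11, adjusted p = 0.203). Med24 differed by -0.20, without overlap, and passed only with the mean of its 2 probe sets (limma adjusted p = 0.0238; adjusted p = 0.118 in the main setting). Med16, Med23, a subunit bound by the ERK-regulated factor Elk1, and Med25 differed by 0.09, -0.0033 and -0.11 with overlapping arrays.

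**Figure D2:**
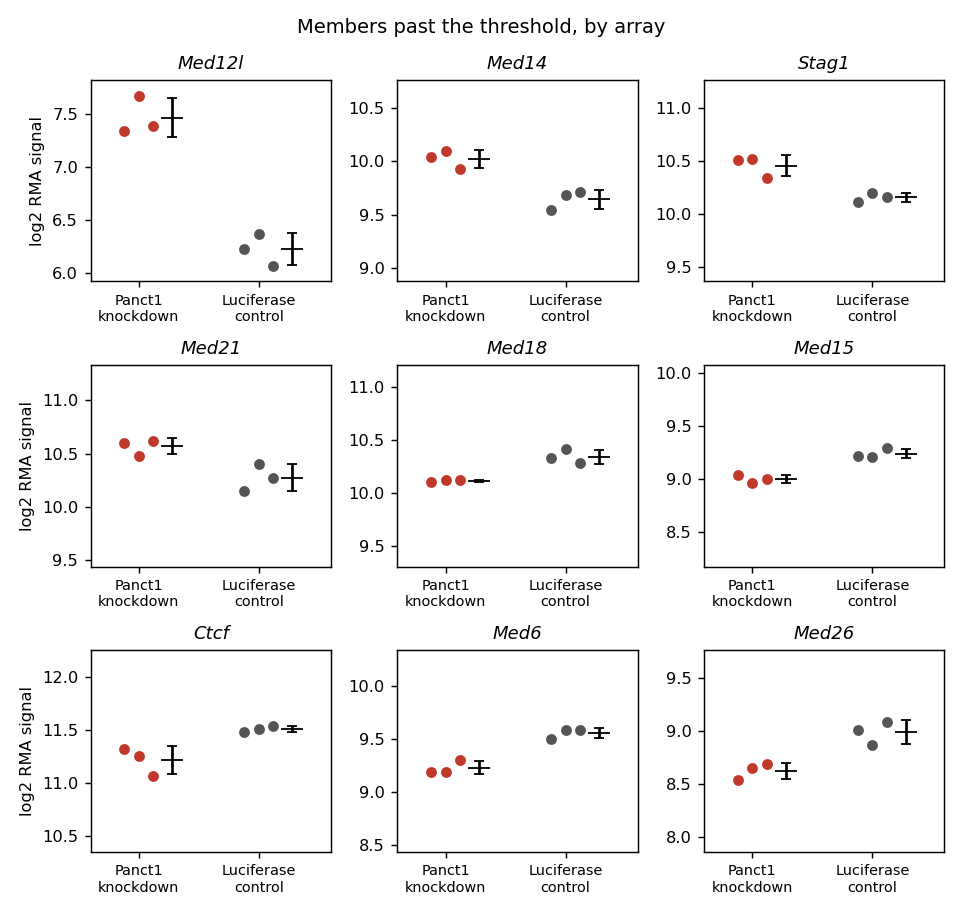
Log2 RMA signal on each array for the 9 members past the threshold, Panct1 knockdown left and Luciferase control right, with mean and SD (n = 3) beside the points and the same span of signal in each panel. The groups do not overlap in any of the 9 panels, and the shift is largest for Med12l, between 7.34 and 7.67 in knockdown and between 6.07 and 6.37 in control.

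The kinase module held the largest difference of all members, in Med12l, a vertebrate paralogue of Med12. Med12l read 7.34, 7.67 and 7.38 on knockdown arrays, against 6.23, 6.37 and 6.07 on control arrays. All knockdown arrays were far above all control arrays, a 2.36-fold higher signal (log2 difference 1.24, SE 0.11, limma adjusted p = 8.19e-05). By size of difference in either direction it ranked 172 among the 18193 genes. The call held in all 15 alternatives. It came from 1 of 3 probe sets: a second, dimmer one read 5.43, 5.41 and 5.36 in knockdown and 5.31, 5.44 and 5.28 in control, a difference of 0.06, and the third, below the lower quartile, differed by 0.35 without passing. With the mean of the 3 the difference was 0.55 (limma adjusted p = 0.000548). Med12l spans several other genes in the RefSeq annotation, of which Gpr171, P2ry12, P2ry13, P2ry14 and Igsf10 have probe sets of their own; these had mean signals of 3.54 to 4.27 and did not pass, with differences from -0.15 to 0.01.

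Med12, the activator of the kinase, did not pass. It read 8.02, 8.24 and 8.29 in knockdown and 8.08, 8.02 and 8.31 in control, with overlapping arrays and a difference of 0.05 (95% interval -0.18 to 0.27, limma adjusted p = 0.792). Cdk8, the kinase, differed by 0.08 (interval -0.07 to 0.23) on its 1 probe set. Ccnc, its cyclin partner, differed by -0.01 on the brightest of 5 probe sets (9.82, 9.76 and 9.72 in knockdown against 9.73, 9.85 and 9.75 in control). Its other probe sets went both ways. By limma adjusted over all probe sets, 2 were lower, by -0.40 and -0.33 (adjusted p = 0.0478 and 0.04), and 1 below the lower quartile was higher, by 0.24 (adjusted p = 0.0352). Ccnc was the only member called in both directions, which 0.4% of all genes with several probe sets were.

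Med13, which ties the kinase module to the core complex, and its paralogue Med13l did not pass, at 0.30 (limma adjusted p = 0.0911) and -0.21 (adjusted p = 0.235). Med13 read 8.65, 8.88 and 8.88 in knockdown and 8.44, 8.34 and 8.74 in control, so the highest control array lay among the knockdown arrays. Without that array, Luciferase control replicate 3, Med13 passed (difference 0.41, limma adjusted p = 0.0188), whereas the mean of its 5 probe sets differed by -0.0013 (limma adjusted p = 0.993). Brip1os, a noncoding gene that overlaps Med13 in the RefSeq annotation, was higher, at 8.60 in knockdown and 8.24 in control (difference 0.36, limma adjusted p = 0.00651). The positions of their probes were not analysed here.

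Of the cohesin ring, the subunits Smc1a, Smc3 and Rad21, which close around DNA, did not pass, and 1 of the 2 STAG subunits was higher. The share of ring genes called was 20%, against 24.2% of all genes. Smc1a read 11.43, 11.55 and 11.56 in knockdown and 11.46, 11.28 and 11.46 in control, a difference of 0.11 (95% interval -0.06 to 0.28, limma adjusted p = 0.337). Smc3 read 11.31, 11.51 and 11.39 in knockdown and 11.54, 11.45 and 11.51 in control, a difference of -0.10 (interval -0.26 to 0.07, limma adjusted p = 0.39). Rad21, the kleisin that links both, read 11.99, 11.93 and 11.86 in knockdown and 12.01, 11.87 and 12.10 in control, a difference of -0.07 (interval -0.24 to 0.11, limma adjusted p = 0.601). Arrays of the groups overlapped for all 3 genes, and each of these intervals lies within 0.3 of 0 on the log2 scale. None of the 8 probe sets of these 3 genes was called by limma over all probe sets, with differences from -0.14 to 0.16.

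Stag1, a subunit that joins the ring and contacts CTCF, read 10.51, 10.52 and 10.34 in knockdown and 10.11, 10.20 and 10.16 in control. All knockdown arrays lay above all control arrays (difference 0.30, SE 0.07, limma adjusted p = 0.0152). Of its 6 probe sets, 3 were higher, and these were the 3 brightest. The clearest of them read 10.07, 10.08 and 10.08 in knockdown and 9.53, 9.48 and 9.57 in control, a difference of 0.55 (SE 0.06, limma adjusted p = 0.000677 over probe sets), while the 3 dimmer ones differed by -0.07 to 0.08. The call on the brightest set did not hold after removal of knockdown replicate 2 or of control replicate 1 (limma adjusted p = 0.066 and 0.0622). Stag2, its X-linked alternative in the ring, read 10.31, 10.62 and 10.70 in knockdown and 10.29, 10.25 and 10.43 in control, with overlap and a difference of 0.22 (adjusted p = 0.176). Stag2 passed without Panct1 knockdown replicate 1 (difference 0.34, limma adjusted p = 0.0202), and its second probe set differed by -0.01.

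Among the loading and release factors 0 of 4 passed by limma, against 24.2% of all genes. At an unadjusted p under 0.05 the count was also 0, against 35.1% of all genes. Nipbl, which loads cohesin, read 8.77, 9.01 and 8.87 in knockdown and 9.07, 8.96 and 9.20 in control, a difference of -0.19 (95% interval -0.39 to 0.01, limma adjusted p = 0.153), and its other 4 probe sets differed by -0.15 to 0.07. Wapl, which releases cohesin, differed by -0.14, and its adaptors Pds5a and Pds5b by 0.05 and -0.14, all with overlapping arrays. Ctcf, which stops cohesin at loop boundaries, was lower: it read 11.32, 11.26 and 11.07 in knockdown and 11.48, 11.51 and 11.54 in control. The groups did not overlap, and the difference was -0.29 (SE 0.08, limma adjusted p = 0.0236), a signal 18.4% lower. A second probe set differed by -0.24 with overlap (limma adjusted p = 0.167 over probe sets). The call for Ctcf rested on small margins: it was kept only on leaving out Panct1 knockdown replicate 1, and lost without any other array (limma adjusted p from 0.0521 to 0.0699).

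Over the whole set, 104 probe sets read the 42 members, and 18 of them passed over all probe sets (17.3%, against 14.6% of all probe sets), 7 higher and 11 lower (7.82% and 6.76% of all probe sets). Of the 28 members with several probe sets, 11 had at least 1 past the threshold and 17 had 0; of all 9010 genes with several probe sets, 31.9% had at least 1. For 0 of the 28 did every probe set pass in the same direction, which 6% of all genes with several probe sets did. In 4 members, Med1, Med28, Med29 and Ccnc, a dimmer probe set passed and the brightest did not. Among the members called on their brightest probe set, Stag1 with 3 and Med6 with 2 had more than 1 probe set called in the direction of the gene.

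**Figure D3:**
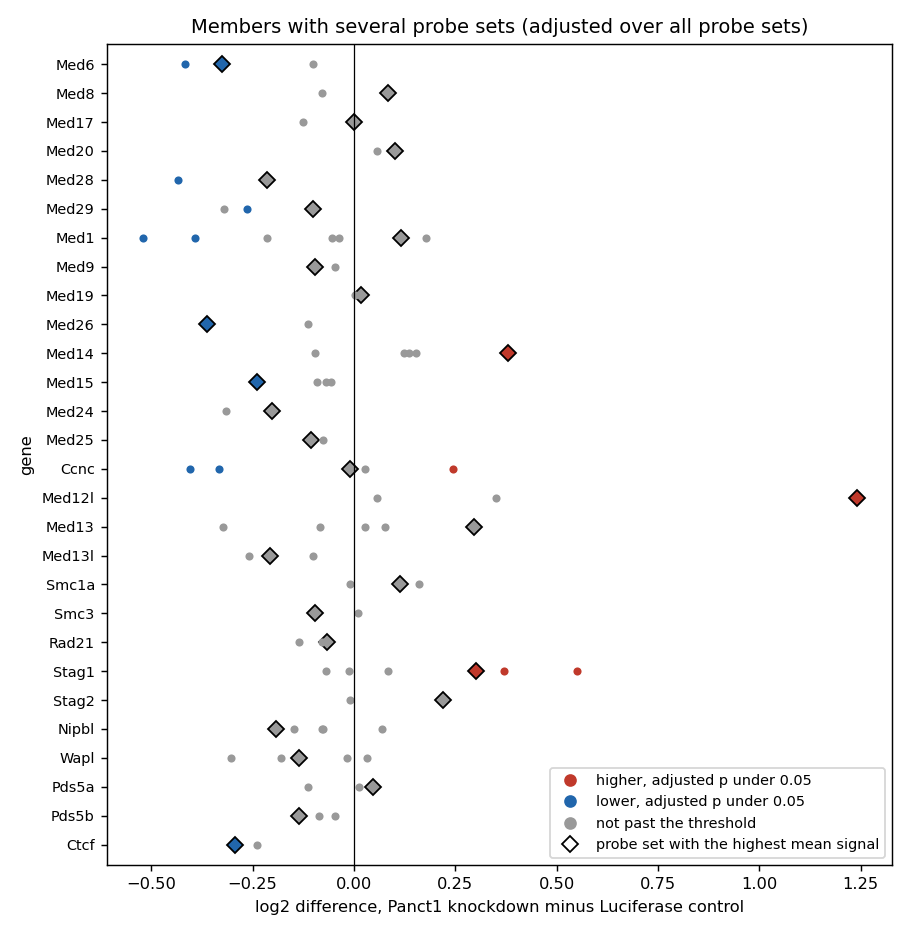
Log2 difference, Panct1 knockdown minus Luciferase control, of each probe set for the 28 members with several, with the brightest set of a gene as a diamond and the colour giving the call over all probe sets. Stag1 has 3 called sets to the right of 0, and Ccnc has called sets on both sides.

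Paralogues and partners were compared as differences within an array, in which a shift common to all log2 signals of that array cancels. A scaling that depends on the level of signal does not cancel. With 3 arrays against 3 the smallest p is 0.1, so none of the 6 pairs could pass. Med12l minus Med12 was 1.19 higher on the log2 scale in knockdown, at -0.68, -0.57 and -0.91 on knockdown arrays and -1.85, -1.65 and -2.24 on control arrays (exact permutation test, two-sided, p = 0.1, adjusted p = 0.15). Med13 minus Med13l was higher by 0.50, at -1.81, -1.84 and -1.90 in knockdown and -2.51, -2.31 and -2.24 in control. Neither pair overlapped, and these offsets depend on the probes, so only the shift between groups can be read. With the mean of all probe sets the shift was 0.50 for the Med12 pair and 0.19 for the Med13 pair (exact permutation p = 0.1 and 0.4).

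Cdk19, the paralogue of Cdk8, was lower itself, at 7.47 ± 0.14 in knockdown and 7.76 ± 0.07 in control (SD, n = 3 each, difference -0.29, limma adjusted p = 0.031), though 0 of its 2 probe sets passed with the adjustment over all probe sets. Cdk19 minus Cdk8 shifted by -0.37 without overlap. Smc1a minus Smc3 shifted by 0.21 without overlap, at 0.12, 0.04 and 0.17 in knockdown and -0.08, -0.17 and -0.05 in control, although neither gene passed by itself. These 2 pairs and the 2 above all reached the smallest exact p of 0.1 (permutation test, adjusted p = 0.15). Stag1 minus Stag2 shifted by 0.08 (exact permutation p = 0.8) and Pds5a minus Pds5b by 0.18 (exact permutation p = 0.3), both with overlap.

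**Figure D4:**
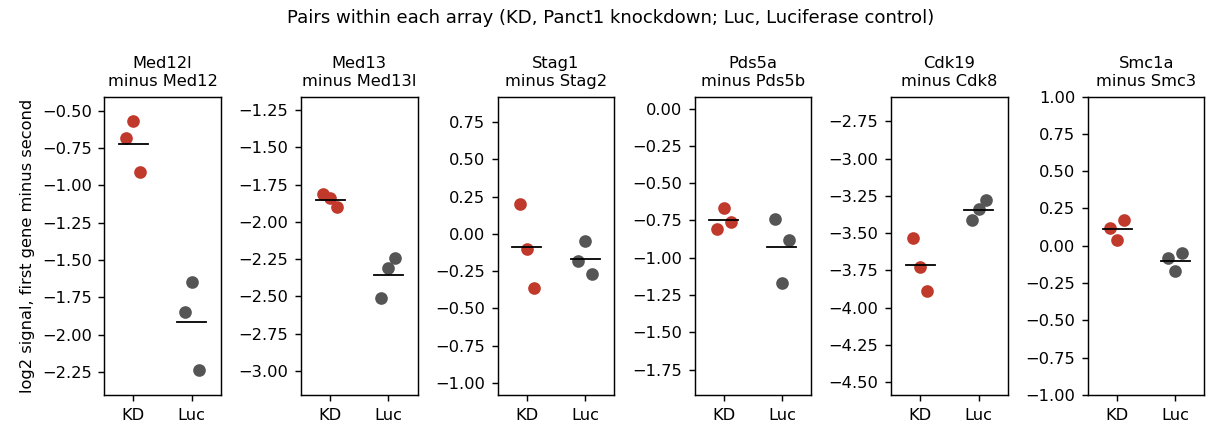
Log2 signal of the first gene minus the second within each array for 6 pairs, Panct1 knockdown (KD) left and Luciferase control (Luc) right, with horizontal lines at the means of 3 arrays and the same span in each panel. The groups are apart for 4 pairs, most widely for Med12l minus Med12 (means -0.72 and -1.91), and overlap for the STAG and PDS5 pairs.

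On their brightest probe sets the 4 X-linked members, Med12, Med14, Smc1a and Stag2, had positive differences, from 0.05 to 0.38, and 1 passed. Over all its probe sets Med14 ranged from -0.10 to 0.38, Smc1a from -0.01 to 0.16 and Stag2 from -0.01 to 0.22. The sign of Med12 turned without knockdown replicate 3 (-0.0067) or control replicate 2 (-0.0117). Of all 618 X-linked genes, 352 had a positive difference, 135 were higher and 49 lower, with a median difference of 0.04. Of all 18193 genes, 8267 had a positive difference.

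Genes around these complexes were read from lists chosen by function, with earlier results of these data known. Of 13 measured genes of cohesin regulation and meiotic cohesin, 5 were lower and 1 higher, with a median of -0.04. This was 46.2% called, against 24.2% of all genes (12.9% higher and 11.3% lower). The meiotic subunit gene Stag3 was lower, at a difference of -0.79 (7.16 in knockdown and 7.94 in control, limma adjusted p = 0.00161). So were separase, Espl1, at -0.33 (limma adjusted p = 0.0058), and the cohesin acetyltransferases Esco2 and Esco1, at -0.28 and -0.25 (limma adjusted p = 0.0132 and 0.0257). The 2 probe sets of Esco2 were lower over all probe sets, whereas the second set of Esco1 differed by 0.22 without passing. Mau2, the partner of Nipbl in the loader, was lower, at -0.22 (limma adjusted p = 0.0409). Pttg1, which encodes the separase inhibitor securin, was higher by 0.22 (limma adjusted p = 0.0295). With the adjustment over all probe sets, 0 of the 3 sets of Pttg1 passed (differences from 0.19 to 0.25), and 1 of the 4 of Mau2 was lower. Relatives of cohesin were also listed, namely genes of condensin and the SMC5/6 complex and, apart from these complexes, Smchd1. Of these 15 genes, 2 were higher and 0 lower (13.3% called, against 24.2% of all genes). These were the condensin subunit gene Ncapd2, at 11.40 in knockdown and 10.69 in control (difference 0.71, limma adjusted p = 7.26e-05), and Smchd1, an SMC-like gene of X inactivation, by 0.36 (adjusted p = 0.0183).

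Of the transcription machinery that Mediator serves, 8 of 27 genes of RNA polymerase II and its initiation factors were lower and 0 higher, with a median of -0.13. The 4 with the smallest p were the polymerase subunit genes Polr2i and Polr2c, at -0.39 and -0.30, Gtf2f1, a subunit of TFIIF, at -0.34, and Ercc3, a helicase of TFIIH, at -0.28 (limma adjusted p from 0.00312 to 0.00989). Of 24 elongation factor genes 4 were lower, among them Ell, at -0.49, Ccnt2, a cyclin of the kinase P-TEFb, at -0.32, and Ccnk, the cyclin partner of Cdk12, at -0.23. One, Ctr9 of the PAF complex, was higher by 0.28 (limma adjusted p from 0.00222 to 0.0365 for these 4). Of 5 listed partners of Mediator and CTCF 2 were measured: Cdk19 was lower, as above, and Yy1, a looping factor, differed by -0.12 without passing (limma adjusted p = 0.232). Cohesin genes are also read with the cell cycle: 8 of 12 S phase genes were lower, with a median of -0.29, led by the replication genes Gins2 (-0.62), Mcm5 (-0.35) and Cdt1 (-0.33) and by Uhrf1 (-0.40), a partner of DNA methylation, and 0 of 9 G2/M genes passed by limma (3 at an unadjusted p under 0.05). The part of the S phase shift in the results on cohesin was not tested. These lists can be read against the 24.2% of all genes that changed, 12.9% higher and 11.3% lower. The share called was 29.6% for the polymerase and its initiation factors, 20.8% for elongation factors and 66.7% for S phase.

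**Figure D5:**
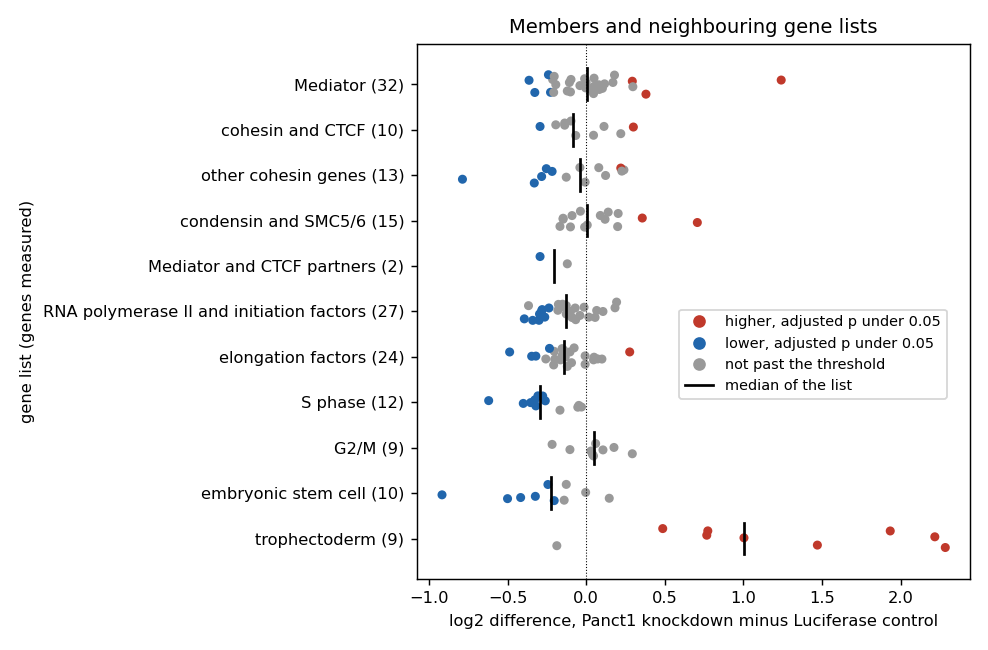
Log2 difference, Panct1 knockdown minus Luciferase control, of each gene in the Mediator and cohesin sets and in the other lists, coloured by call, with a line at the median of each list. The Mediator and cohesin medians lie at 0.01 and -0.08, S phase at -0.29 and trophectoderm at 1.00.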

How the data were processed

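Per the submitters' processing notes, GCOS 1.4 and RMA produced the deposited values; the log2 signals were deposited by the authors, 1 per probe set and array, and were used as they stand. Of 45101 probe sets 64 were Affymetrix controls and were left out. A platform annotation gave 1 symbol to 34945 sets, several to 932 and none listed to 9160; 34741 were matched by gene ID to RefSeq GRCm38.p6, which was used for names, overlaps and promoters. Probe sets with several genes, 1 of them naming a member, were not used.

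Each of 18193 genes was tested on its brightest probe set, by the mean of the 6 arrays, with limma 3.58.1 (R 4.3.3, statmod 1.5.0; group as the only term, two-sided, Benjamini-Hochberg over all genes, adjusted p under 0.05). No 2 arrays had the same value on more than 3.21% of probe sets. The fit was tested on simulated data. The number of arrays limits the precision. Pairs were tested by exact permutation (scipy 1.17.1). All members are named, with per-array values for those past the threshold and for Med1, Med12, Med14, Smc1a, Smc3, Rad21, Nipbl and Ctcf; of each other list at most the 4 genes with the smallest p were to be named, and Mau2, Pttg1, Yy1, overlapping genes, dimmer probe sets and the per-array values of Ccnc, Med13 and Stag2 are given beyond it, chosen after their values were seen. Alternatives were another scaling, variance model, weighting, filter, choice of probe set and threshold, a replicate block, and leaving out each array. Members and lists were chosen with earlier results of these data known.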

Additional observations from a re-analysis of the deposited data

How the results depend on the processing

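Of the 9 members past the threshold, Med12l, Med26 and Med6 stayed past it in all 15 alternatives without a fold minimum and 6 were lost in at least 1; 7 of the 33 others passed in at least 1. No called member changed direction in these alternatives, and the sign of 8 of the 33 others turned in at least 1, as for Med1 (-0.13 with the mean of probe sets) and Med19 (-0.0967 without Panct1 knockdown replicate 3). Requiring 1.5-fold left 1227 genes (837 higher, 390 lower), 1 Mediator gene (1 higher, 0 lower) and 0 cohesin or CTCF genes (0 higher, 0 lower). Higher Mediator genes numbered 5 with an intensity trend and robust variance and 5 with array weights, which also gave 2 higher cohesin genes. The mean of probe sets turned the Mediator median to -0.02 (-0.0217), against 0.0083. Leaving out each array in turn gave 4 to 6 called Mediator genes (2 to 3 higher, 2 to 3 lower, median -0.0033 to 0.0283), the 4 without Panct1 knockdown replicate 3 or Luciferase control replicate 1. For cohesin and CTCF it gave 0 to 3 (0 to 2 higher, 0 to 1 lower, median -0.0875 to -0.0525), 0 without Panct1 knockdown replicate 2 or Luciferase control replicate 1 and 3 without Panct1 knockdown replicate 1. Over all genes it gave 3133 to 3986. The cause of these shifts was not tested. Same-numbered samples did not deviate together (correlations -0.187, -0.261 and -0.102), so the main setting did not pair samples by number. Each knockdown sample correlated best with a control sample of another number (0.273, 0.284 and 0.215). Deviations within a group cancel out, so some positive correlation arises in any data. Whether samples of different numbers shared a batch was not tested. A replicate block by number gave 3496 called genes, 4 of Mediator (2 lower) and 1 of cohesin and CTCF (0 lower). Of the 104 member probe sets, 12 lay below the lower quartile of signal.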
